A study of Mus musculus with 7 samples.

Results

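A set of 9 genes that mark primordial germ cells (PGCs) and early germ cells was followed through mini-oocyte induction: Prdm1, Prdm14, Tfap2c, Nanos3, Nanos2, Dnd1, Ddx4, Dazl and Zglp1. They were taken by gene symbol from a table of 55364 listed genes, and all 9 symbols were found once. Of these 9, 7 passed the filter for testing (1 TPM, a transcript level scaled for gene length and library size, in 2 or more libraries), as did 21780 genes in all, whereas Prdm14 and Nanos3 did not. Mini-oocytes are oocyte-like cells made directly from mouse embryonic stem cells (mESCs) by forced expression of transcription factors, in flat culture and without gonadal somatic cells. RNA-seq was available for 7 libraries in 3 groups: 4F-mini-oocytes at day 7 (n = 2), 4F-mini-oocytes at day 21 (n = 3) and 8F-mini-oocytes at day 21 (n = 2).

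Both lines came from the same female mESC line, BVSC H18, on a hybrid 129/C57BL6 background. BVSC cells carry fluorescent reporters under Prdm1 and Dppa3 regulatory sequence, and whether reporter transcripts add reads to Prdm1 was not tested. The 4F line expressed Nobox, Figla, Tbpl2 and Lhx8, and the 8F line expressed in addition Stat3, Dynll1, Sub1 and Sohlh1, each fused to a destabilization domain that the ligand Shield-1 blocks. All 3 groups were grown in S10 medium with additives that included SCF and Shield-1 on poly-L-ornithine and laminin at the start. Shield-1 was left out of fresh medium from a point after day 7 and before day 21, so the day 7 libraries were taken with it and both day 21 groups after its withdrawal. The day 7 libraries were made from pools of 1000 cells and the day 21 libraries from pools of 10 cells, so that day, cell number and the withdrawal of Shield-1 cannot be told apart. There was no 8F sample at day 7. The paper describes an Npm2-mCherry reporter cassette in the 8F line and names none for the 4F line. For 8F over 4F, the added factors and other differences between the lines cannot be told apart. Nothing in the labels says whether the replicates were separate cultures, so the p-values below measure only the spread between these samples, which may be technical. Parental mESCs and oocytes taken from mice were not analysed here.

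As background, PGCs are set aside in the early mouse embryo when BMP signals switch on PRDM1, PRDM14 and TFAP2C, which together repress the somatic programme and restore pluripotency genes. NANOS3 and DND1 are RNA-binding proteins that keep the migrating cells alive. DDX4 and DAZL are turned on as PGCs reach the gonad. After that, NANOS2 acts in male fetal germ cells, whereas ZGLP1 acts downstream of BMP in female germ cells to start the oogenic programme.

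Promoter sequence is shown first for the 3 genes whose levels differed between groups, Nanos2, Ddx4 and Dazl, because their promoters differ in CpG content, and CpG-rich promoters of germ line genes are well known to be silenced by DNA methylation in somatic cells. RefSeq (GRCm38.p6) gave a window of 300 bases, 250 before and 50 after the RefSeq start, for 6 of the 9 genes. Only the stretch upstream of the outermost annotated start plus the first 30 bases after it is printed. CpG dinucleotides are in capitals, and the sequences run 5′ to 3′ on the strand of the gene.
Dazl (chr17:50293607-50293870, minus strand): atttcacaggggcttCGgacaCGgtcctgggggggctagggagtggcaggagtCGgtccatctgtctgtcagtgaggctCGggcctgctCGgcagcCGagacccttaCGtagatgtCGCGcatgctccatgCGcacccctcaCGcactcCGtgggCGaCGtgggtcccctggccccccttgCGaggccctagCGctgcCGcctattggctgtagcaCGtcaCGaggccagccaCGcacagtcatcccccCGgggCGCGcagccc
Ddx4 (chr13:112652446-112652560, minus strand): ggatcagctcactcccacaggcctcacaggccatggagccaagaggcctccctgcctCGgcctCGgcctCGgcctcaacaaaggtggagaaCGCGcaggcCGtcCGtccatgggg
Nanos2 (chr7:18987274-18987429, plus strand): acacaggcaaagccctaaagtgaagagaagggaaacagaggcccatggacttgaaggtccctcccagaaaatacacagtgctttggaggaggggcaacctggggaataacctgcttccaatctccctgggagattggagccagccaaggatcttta

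The whole Ddx4 window held 38 CpG dinucleotides, more than 95.05% of the 32851 RefSeq promoter windows of this length, and the Dazl window held 28, more than 85.8% of them. The Nanos2 window held 0, and the median over all windows was 7. Prdm1 had 20, Zglp1 had 17 and Nanos3 had 3. Motifs were searched as letters on both strands over the whole windows, with positions counted from the RefSeq start. In Prdm1, Nanos3, Nanos2 and Ddx4 the annotated gene begins further upstream, so the matches given below for these genes lie inside it. For Prdm1 and Nanos3 the whole window lies inside the annotated gene, CpG dinucleotides included. None of the matches in Nanos2 and Ddx4 lies wholly in the printed stretch. The E-box CACGTG, known as a site for MAX and MGA dimers, began at -29 in Ddx4 and at -125 in Zglp1, and 7.15% of all windows held it. The GC box GGCGGG was found at -137 and -102 in Ddx4 and at -24 in Zglp1 (35.3% of all windows), and the TATA box TATAAA at -33 in Nanos2 (13.6%). CAGGTG, the E-box letters of the FIGLA kind, was found at -87 in Prdm1, at -148 in Nanos3 and at -97 in Zglp1 (20.2%). The homeobox core TAATTA was in none of the 6 windows and in 5.29% of all. None of the 5 motifs was found in the Dazl window. These matches describe letters only, since binding and methylation were not measured here.

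In levels the 9 genes fell into 3 kinds. Ddx4 and Dazl were abundant at day 7 and in 4F-mini-oocytes at day 21, Tfap2c, Zglp1, Prdm1 and, at day 21, Nanos2 were at a few to about 20 TPM, and Dnd1, Nanos3 and Prdm14 were at or near 0 in several libraries. The libraries held 9051761 to 17190271 reads on genes, and read numbers could be recovered from the TPM steps, so that each value below has a depth. The 8F libraries had the most reads. They listed 26563 and 26750 genes above 0, against 21293 to 23334 in the 4F libraries. The low values of Prdm14, Nanos3 and Dnd1 in 8F are to be read beside this. A level of 3 reads was taken as the detection floor. In pools of cells such as these, fewer cells expressing a gene and less RNA per cell cannot be told apart.

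**Figure D1:**
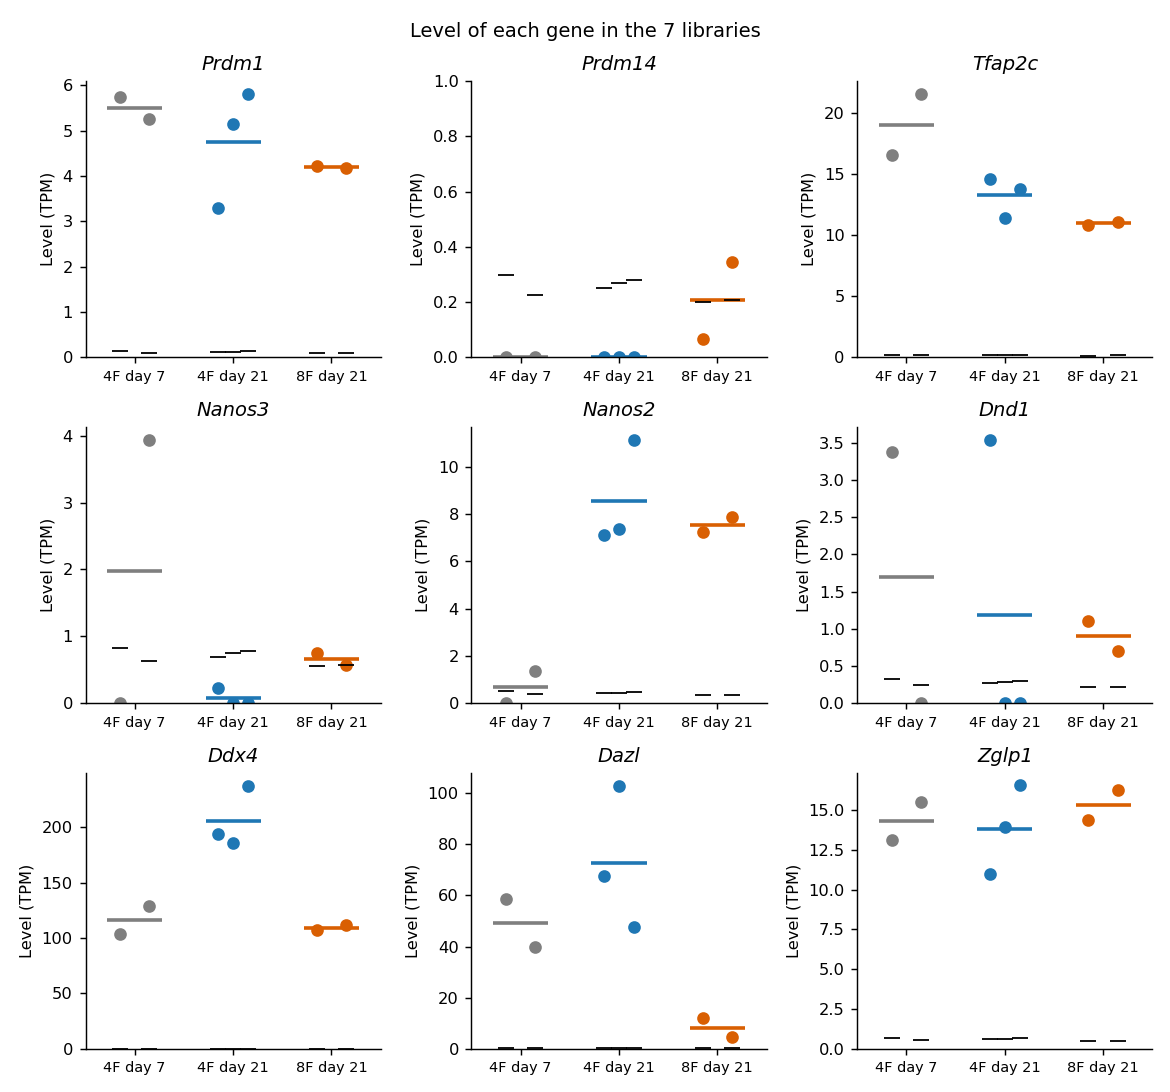
Level of each of the 9 genes in TPM (vertical axes, each from 0) in the 7 libraries, by group (horizontal axis); points are libraries, thick lines are group means and short black dashes mark the level of 3 reads in each library. Nanos2 is between 7.10 and 11.1 TPM in all 5 day 21 libraries, and Dazl is at 11.9 and 4.77 TPM in 8F-mini-oocytes, below every 4F library.

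Among the specification factors, Prdm1 and Tfap2c were detected in every library. Prdm1, a PR-domain repressor of the somatic programme (ENSMUSG00000038151.13, chromosome 10, 44437177 to 44528501, minus strand, mm10), was at 5.76 and 5.25 TPM at day 7, at 3.29, 5.16 and 5.81 TPM in 4F-mini-oocytes at day 21 and at 4.21 and 4.19 TPM in 8F-mini-oocytes. The 4F day 21 libraries overlapped both other groups. The log2 fold change of TPM + 1 from day 7 to day 21 was -0.20 (95% interval -1.07 to 0.66, limma adjusted p = 0.691), and that of 8F over 4F at day 21 was -0.12 (95% interval -0.98 to 0.75, limma adjusted p = 0.905). Both 8F libraries were below both day 7 libraries, by a log2 fold change of -0.32 (95% interval -1.27 to 0.63, limma adjusted p = 0.566). None of these passed the threshold of a false discovery rate (FDR) of 0.05, and each level rested on 86 to 153 reads.

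Tfap2c, the AP-2 gamma factor of PGCs and also a factor of trophoblast (chromosome 2, 172549593 to 172558622, plus strand), was at 16.6 and 21.5 TPM at day 7. It was at 14.6, 11.4 and 13.8 TPM in 4F-mini-oocytes at day 21 and at 10.9 and 11.1 TPM in 8F-mini-oocytes. The 3 groups did not overlap and stood in the order 4F day 7, 4F day 21, 8F day 21. None of the differences passed FDR 0.05: the log2 fold change was -0.49 (SE 0.23, limma adjusted p = 0.140) from day 7 to day 21 in 4F, -0.25 (SE 0.23, limma adjusted p = 0.611) for 8F over 4F at day 21 and -0.73 (SE 0.25, limma adjusted p = 0.0595) for 8F at day 21 over day 7. The first passed with 2 other scalings, median-of-ratios (-0.81) and voom on the recovered reads (-1.07). The last passed with these (-1.04 and -1.19) and with quantile normalization (-0.96). Of a list of 10 trophoblast markers 7 were tested. At day 21 in 4F, 5 were lower and 1, the AP-2 gene Tfap2a, higher, beside 15.3% and 25.3% of all tested genes. The summed level of the list was 1144 to 1623 TPM at day 7, 45.8 to 140.7 TPM in 4F and 30.9 to 39.96 TPM in 8F at day 21, Krt8 leading. Of the trophoblast factors at day 7, Hand1 was at 12.0 and 63.6 TPM, Gata3 at 8.30 and 10.6 TPM and Eomes at 2.33 and 0.968 TPM, Cdx2 and Elf5 were at 0 in both libraries, and the keratin Krt7 was at 24.3 and 25.1 TPM. The part of these markers in the Tfap2c values was not tested.

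Prdm14, the PR-domain factor that restores pluripotency genes in PGCs (chromosome 1, 13113457 to 13127163, minus strand), was listed at 0 in all 5 libraries of the 4F line, at either day. The floor of 3 reads was 0.224 to 0.298 TPM in those 5 libraries. In 8F-mini-oocytes it was at 0.0669 TPM (1 read) and 0.345 TPM (5 reads, exact 95% Poisson interval 0.112 to 0.805 TPM). Only the second 8F library was above the floor. Prdm14 was not tested, and these intervals cover counting error only.

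Nanos3 and Dnd1, both RNA-binding proteins of early germ cells, had reads in some libraries and 0 in others. Nanos3 (chromosome 8, 84173731 to 84185217, minus strand), needed for the survival of PGCs, was at 0 and 3.94 TPM at day 7 and at 0.231, 0 and 0 TPM in 4F-mini-oocytes at day 21. In 8F-mini-oocytes it was at 0.743 and 0.575 TPM. The 3.94 TPM of the second day 7 library came from 19 reads, and the 8F values from 4 and 3 reads, at the floor. One day 7 library had reads and the other had 0, and no test was made.

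Dnd1, the RNA-binding partner of NANOS proteins (chromosome 18, 36763671 to 36766214, minus strand), was at 3.38 and 0 TPM at day 7, at 3.54, 0 and 0 TPM in 4F-mini-oocytes at day 21, and at 1.10 and 0.697 TPM in 8F-mini-oocytes. These came from 32 and 0, from 40, 0 and 0, and from 15.5 and 9.5 credited reads. Both 4F groups held libraries with 32 or 40 reads beside libraries with 0, and the groups overlapped throughout. Its 95% interval for day 21 over day 7 was wide, from -2.45 to 1.78 on the log2 scale (limma adjusted p = 0.793), that for 8F over 4F ran from -1.92 to 2.31 (limma adjusted p = 0.943), and that for 8F over day 7 from -2.46 to 2.17 (limma adjusted p = 0.923). Its exons share 140 bases, 5.80% of its exon length, with Wdr55 on the other strand.

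Nanos2, an RNA-binding protein that works with the CCR4-NOT deadenylase in male fetal germ cells (ENSMUSG00000051965.8, chromosome 7, 18987400 to 18988962, plus strand, 1 exon), was at 0 and 1.35 TPM at day 7. It was at 7.10, 7.36 and 11.1 TPM in 4F-mini-oocytes at day 21, and at 7.25 and 7.87 TPM in 8F-mini-oocytes. All 5 day 21 libraries were above both day 7 libraries, and the day 21 groups overlapped. Nanos2 rose from day 7 to day 21 in 4F by 2.61 on the log2 scale of TPM + 1 (SE 0.47, 95% interval 1.48 to 3.75, limma adjusted p = 0.00548), and 8F at day 21 was above day 7 by 2.48 (SE 0.52, limma adjusted p = 0.0111). The difference of 8F from 4F was -0.13 (95% interval -1.27 to 1.00, limma adjusted p = 0.923). The call against day 7 in 8F was lost without either 8F library (limma adjusted p = 0.0761 and 0.0845). Since Nanos2 passed the filter largely through the day 21 libraries, where it was high, its call is read with the read numbers that follow.

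Reads over Nanos2 are shared with an antisense gene. Gm45058 (18987559 to 18988324, minus strand) lies wholly inside the Nanos2 exon and covers 766 of its 1563 bases, 49.0%. The authors' counting split each read over overlapping genes, and no strand option is stated, so reads of both genes over this stretch cannot be told apart. At day 7, Nanos2 was credited with 0 and 11 reads, and none of the 11 lay over Gm45058. At day 21 it was credited with 52, 50 and 73 reads in 4F and 66 and 69.5 reads in 8F, of which 73.1%, 48.0% and 32.9%, and 39.4% and 59.7%, were credit for shared reads. The reads clear of Gm45058 numbered 14, 26 and 49 in 4F and 40 and 28 in 8F at day 21.

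On the 797 clear bases alone, Nanos2 was at 0 and 2.64 TPM at day 7, at 3.75, 7.51 and 14.7 TPM in 4F-mini-oocytes at day 21 and at 8.61 and 6.22 TPM in 8F-mini-oocytes. Every day 21 library was still above both day 7 libraries. The log2 fold change from day 7 to day 21 in 4F was 2.17 (SE 0.72, limma adjusted p = 0.0517) and that of 8F over day 7 was 2.13 (limma adjusted p = 0.0771), so neither call was kept on these bases. This alternative was chosen after seeing the data. The difference of 8F from 4F at day 21 was -0.04 on these bases (limma adjusted p = 0.992).

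**Figure D2:**
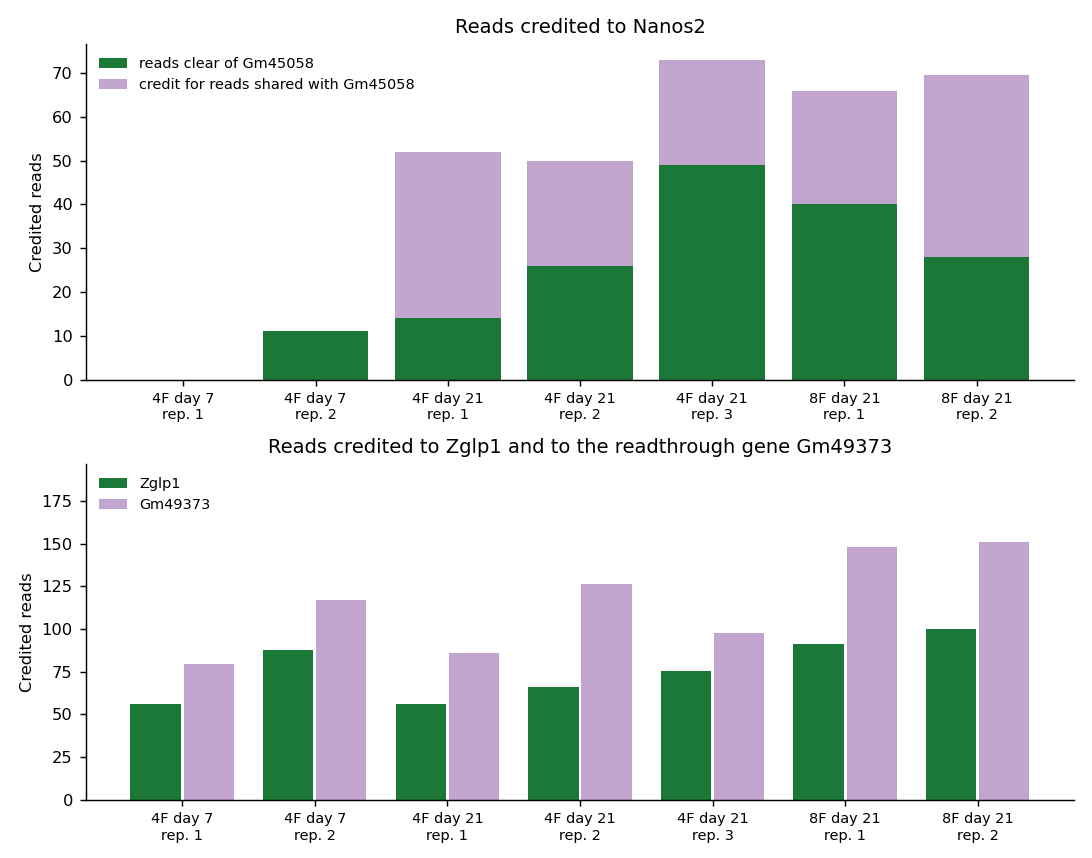
Reads credited to genes in each of the 7 libraries (vertical axes). Upper panel, Nanos2, split into reads clear of the antisense gene Gm45058 (green) and credit for reads over it (purple), which is 0 at day 7 and 24 to 41.5 reads at day 21. Lower panel, Zglp1 (green) beside the readthrough gene Gm49373 (purple), which shares 92.2% of the Zglp1 exon bases and is credited with more reads than Zglp1 in every library.

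Of the germ line identity genes, Ddx4 had the highest level of the set in all 7 libraries, and Dazl came next in the 5 libraries of the 4F line. Ddx4, the VASA RNA helicase (ENSMUSG00000021758.14, chromosome 13, 112598333 to 112652475, minus strand), was at 104.0 and 129.3 TPM at day 7, at 193.4, 185.7 and 237.3 TPM in 4F-mini-oocytes at day 21 and at 107.4 and 111.3 TPM in 8F-mini-oocytes. Each of these levels rested on 1230 to 3000 reads and was at or above the 93.2 percentile of protein-coding genes in its library. The 3 day 21 libraries of the 4F line were above all others, and the 8F libraries lay within the range of day 7. Ddx4 rose from day 7 to day 21 in 4F (log2 fold change 0.81, SE 0.15, limma adjusted p = 0.0058), and was lower in 8F than in 4F at day 21 (log2 fold change -0.90, SE 0.15, limma adjusted p = 0.0198). The difference between 8F at day 21 and day 7 was -0.08 (95% interval -0.48 to 0.31, limma adjusted p = 0.721), and -0.65 after quantile normalization (limma adjusted p = 0.0213).

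The rise of Ddx4 in 4F depended on how the libraries were put on a common scale. Over all tested genes the median log2 fold change from day 7 to day 21 was 0.17, and it was -0.06 with median-of-ratios scaling, 0.04 with quantile normalization and -0.32 using voom. Under these 3 scalings the Ddx4 difference was 0.47 (limma adjusted p = 0.0509), 0.18 (limma adjusted p = 0.369) and 0.27 (limma adjusted p = 0.200), so the direction was kept and the call was lost. The lower level in 8F kept its call under the same 3 scalings. With the replicate number as a block it was -0.79 (limma adjusted p = 0.0888), which did not pass. Replicate number 3 occurs only in 4F at day 21, so the block takes up that library, and the estimate equals that without it. Over all settings other than leaving out a library, the Ddx4 difference of 8F from 4F was at -0.76 to -0.90 on the log2 scale. It lost its call without the first 4F day 21 library (limma adjusted p = 0.0517) and without either 8F library (limma adjusted p = 0.185 and 0.146), where the lone 8F library is assumed to vary like the other groups.

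Dazl, an RNA-binding protein that licenses germ cells for gametogenesis (ENSMUSG00000010592.9, chromosome 17, 50279395 to 50293636, minus strand), was at 58.5 and 39.8 TPM at day 7 and at 67.8, 102.9 and 47.5 TPM in 4F-mini-oocytes at day 21. In 8F-mini-oocytes it was at 11.9 and 4.77 TPM, from 265 and 103 reads. Both 8F libraries were below all 5 libraries of 4F-mini-oocytes, and the 4F groups overlapped. The 8F libraries also differed from each other beyond counting error, with exact 95% Poisson intervals of 10.51 to 13.4 and 3.89 to 5.79 TPM. Between 4F day 7 and day 21 the log2 fold change was 0.51 (95% interval -0.55 to 1.57, limma adjusted p = 0.401), and its sign turned under quantile normalization (-0.05).

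Dazl was lower in 8F than in 4F at day 21 by a log2 fold change of -3.03 (SE 0.44, 95% interval -4.08 to -1.97, limma adjusted p = 0.0139), 8.14-fold, the rank 122 among the lowest of the 21780 tested genes. Against day 7, 8F was lower by a log2 fold change of -2.51 (SE 0.48, limma adjusted p = 0.0082). The call between 8F and 4F was lost without the first 8F library (-3.61, limma adjusted p = 0.0590) and without the second (-2.44, limma adjusted p = 0.112), and that against day 7 without the second 8F library (limma adjusted p = 0.0659) and without the first day 7 library (limma adjusted p = 0.0679). Under the 3 other scalings both calls were kept. With the replicate number as a block, the call between 8F and 4F was lost (-3.29, limma adjusted p = 0.0604). The estimate was the same without the third 4F day 21 library, where the call was kept. The call against day 7 was kept with the block.

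Zglp1, the GATA-like zinc finger factor of oogenic fate (ENSMUSG00000079681.3, chromosome 9, 21062393 to 21067093, minus strand), was at 13.1 and 15.5 TPM at day 7, at 10.99, 14.0 and 16.5 TPM in 4F-mini-oocytes at day 21 and at 14.4 and 16.3 TPM in 8F-mini-oocytes. The 3 groups overlapped. The log2 fold change was -0.06 (95% interval -0.64 to 0.52, limma adjusted p = 0.876) from day 7 to day 21 and 0.15 (95% interval -0.43 to 0.73, limma adjusted p = 0.793) for 8F over 4F. For 8F over day 7 it was 0.09 (limma adjusted p = 0.814), with the sign turned under the 3 other scalings (-0.21, -0.08 and -0.31). Of its 1088 exon bases, 1003 are shared with Gm49373, a protein-coding readthrough gene on the same strand. Zglp1 was credited with 56 to 100 reads a library and Gm49373 with 79.7 to 151.3, and over the shared bases reads of both genes cannot be told apart.

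**Figure D3:**
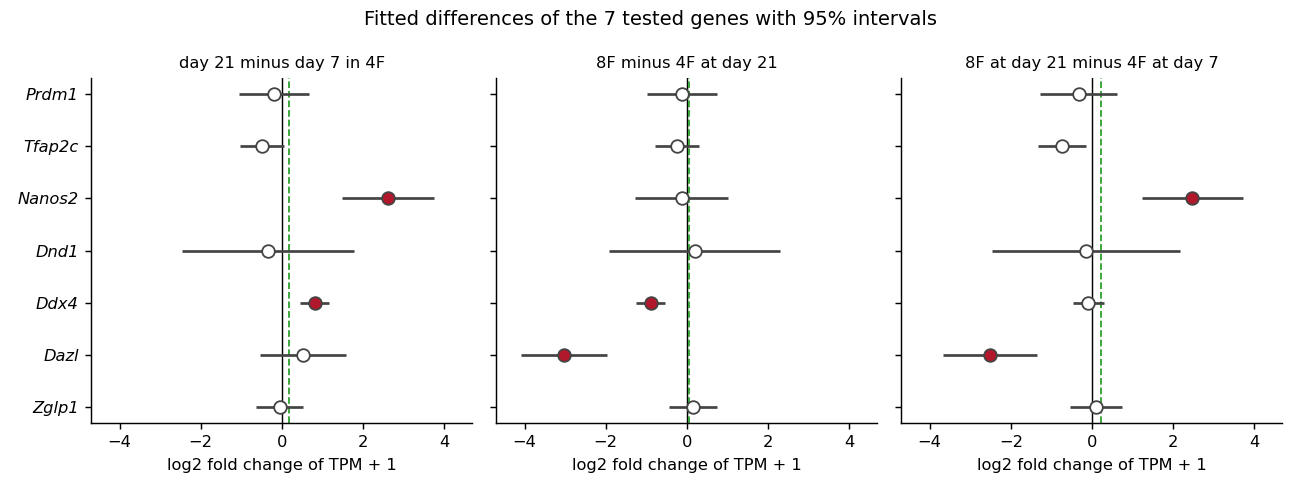
Log2 fold change of TPM + 1 (horizontal axes) of the 7 tested genes in the 3 comparisons, with 95% intervals from limma; filled points passed FDR 0.05 and the green dashed line is the median of all tested genes. Nanos2 and Ddx4 are filled for day 21 over day 7, Ddx4 and Dazl for 8F over 4F, and Nanos2 and Dazl for 8F over day 7.

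Counted over the set, 2 of the 7 tested genes, Nanos2 and Ddx4, passed FDR 0.05 from day 7 to day 21 in 4F, both higher, while 40.6% of all tested genes passed and 25.3% passed as higher. Of all genes passed in this comparison 62.35% were higher, and 48.62%, 52.03% and 37.69% under median-of-ratios, quantile and voom scaling. For 8F over 4F at day 21, 2 of 7 passed, Ddx4 and Dazl, both lower, while 8.37% of all genes passed, 3.95% as higher and 4.41% as lower. Of all genes passed there 47.26% were higher, and 62.17% with voom, which moved the median log2 fold change of all genes from 0.06 to 0.26. For 8F at day 21 over day 7, which shares its libraries with both other comparisons, 2 of 7 passed, Nanos2 higher and Dazl lower, while 37.2% of all genes passed, with 65.11% of them higher and 51.54%, 51.07% and 47.38% under the same 3 scalings. In 4F over day 7 and 8F over day 7 the share of the set, 28.6%, was below that of all genes, but 7 genes are too few to set it apart. For 8F over day 7, 3, 4 and 3 of the 7 passed under median-of-ratios, quantile and voom scaling.

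**Figure D4:**
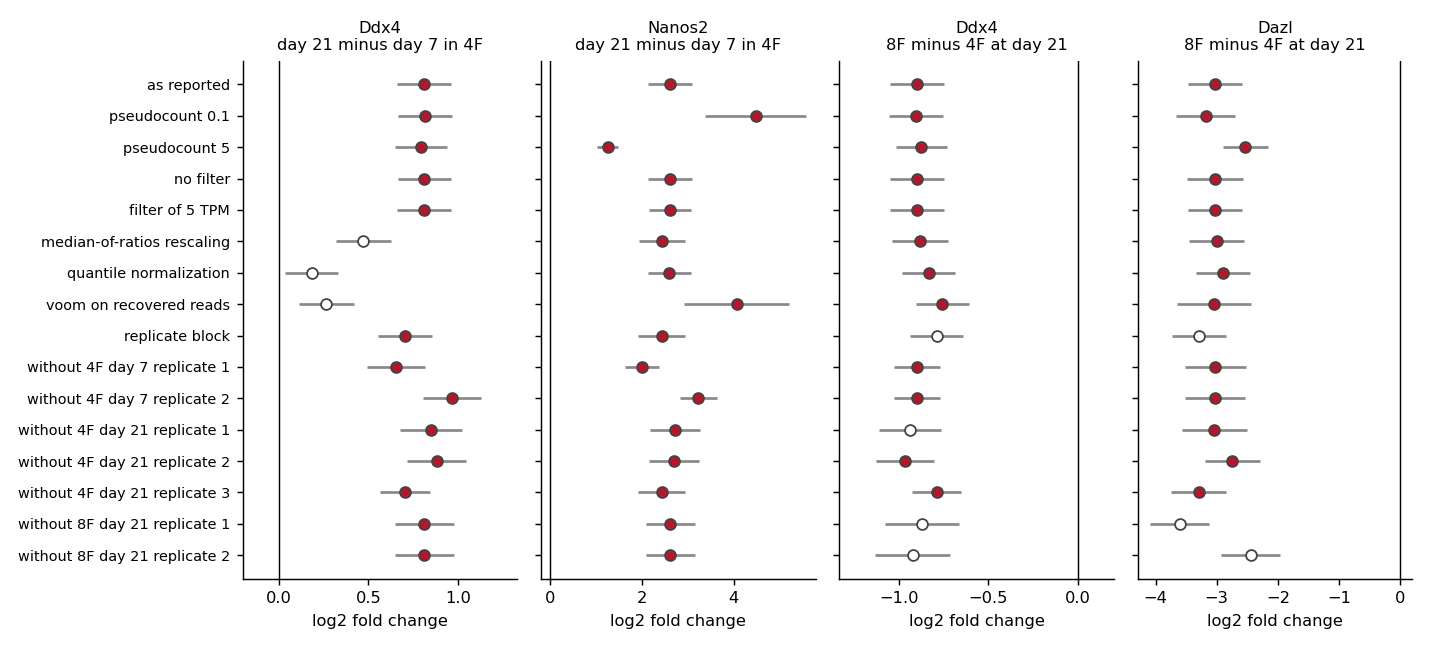
Log2 fold change (horizontal axes, bars of 1 SE) of Ddx4 and Nanos2 from day 7 to day 21 and of Ddx4 and Dazl between 8F and 4F, as reported and under each other setting or left-out library (vertical axis); filled points passed FDR 0.05. Every point keeps its side of 0, and the rise of Ddx4 is open under the 3 other scalings.

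The neighbouring pathways were read from 6 lists of other genes. For 8F over 4F, no listed gene named below kept its call without the first 8F library, and only Id1 did without the second. Of the other PGC specification genes, 17 were tested, and 6 were higher and 4 lower at day 21 than at day 7 in 4F (median log2 fold change 0.30, against 0.17 over all genes). The shares over all tested genes to set beside this count and those of the other lists were 25.3% higher and 15.3% lower with time in 4F, and 3.95% higher and 4.41% lower for 8F over 4F. Kit, the SCF receptor, rose from 49.2 ± 16.8 (SD, n = 2) to 265 ± 22.7 TPM (SD, n = 3), and Tcl1, a coactivator of AKT, rose from 100.5 ± 17.1 to 596 ± 49.1 TPM. Pou5f1, the pluripotency factor also kept in germ cells, rose from 27.3 ± 3.99 to 196 ± 61.7 TPM, and Alpl, the alkaline phosphatase used to stain PGCs, fell from 18.1 ± 4.72 to 1.28 ± 1.11 TPM. The counts were 6 and 5, 7 and 5, and 6 and 7 under the 3 other scalings. Between 8F and 4F at day 21, 2 of 17 were higher, Klf2 (13.2 ± 2.25 against 1.60 ± 1.05 TPM) and Tcl1 (1116 ± 127.5 against 596 ± 49.1 TPM), and 0 were lower.

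Of the other genes of gonadal germ cells, 21 were tested, and 8 were higher and 2 lower at day 21 than at day 7 in 4F (median 0.40), where 25.3% and 15.3% of all tested genes were. This balance turned with the scaling, to 3 and 3, 4 and 2, and 2 and 4. Brdt, a testis bromodomain protein, rose from 8.17 ± 1.76 to 66.1 ± 8.78 TPM, and Taf7l, a germ line TFIID subunit, fell from 29.1 and 42.3 TPM to 0 in all 3 libraries. Beside Ddx4 and Dazl, 3 of these 21 were lower in 8F than in 4F at day 21, and 0 higher, beside 4.41% and 3.95% of all tested genes. They were Tdrkh and Mael, piRNA pathway proteins, and Slc25a31, a germ cell ADP/ATP carrier. Tdrkh was at 40.1 ± 0.586 TPM (SD, n = 2) against 86.9 ± 8.35 TPM (SD, n = 3), Mael at 88.9 ± 6.13 against 140.9 ± 9.96 TPM, and Slc25a31 at 24.1 ± 5.50 against 46.7 ± 5.42 TPM. Tdrkh kept its call under all 3 other scalings, Mael under 2 and Slc25a31 under 0.

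The deadenylase and RNA-binding partners of NANOS proteins and DND1 were all expressed. Of 13 tested, 8 were higher and 1 lower at day 21 than at day 7 in 4F (median 0.82), beside 25.3% and 15.3% of all tested genes, and 7 and 4, 4 and 4, and 5 and 4 under the other scalings. Cnot8, a catalytic deadenylase subunit, rose from 62.3 ± 9.96 to 217 ± 8.92 TPM, and Cnot3, a scaffold-bound subunit, from 99.7 ± 8.57 to 333 ± 19.12 TPM. Between 8F and 4F, Cnot8 was lower, at 144 ± 0.865 against 217 ± 8.92 TPM, as was Cnot1, the scaffold, at 134 ± 3.63 against 189 ± 7.43 TPM. Cnot8 kept its call under 1 of the 3 scalings.

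Among meiotic entry genes and the signals upstream of them, more fell than rose with time in 4F. Of 19 tested, 2 were higher and 9 lower at day 21 than at day 7 in 4F (median -0.77), and 2 and 10, 2 and 8, and 2 and 12 under the other scalings. Over all tested genes 25.3% were higher and 15.3% lower. Stra8, the gatekeeper of meiotic entry, was at 24.5 and 1.38 TPM at day 7 and was listed at 0 in all 5 day 21 libraries. Meioc, which sustains meiotic prophase, fell from 52.9 ± 15.8 to 4.34 ± 0.895 TPM. Between 8F and 4F at day 21 the BMP target genes Id1 and Id3 were higher, at 592 ± 102.3 against 77.3 ± 26.8 TPM and at 133 ± 10.9 against 34.0 ± 16.0 TPM. Id2 (log2 fold change 0.96, limma adjusted p = 0.139) and Id4 (0.45, limma adjusted p = 0.352) did not pass, and BMP signalling was not tested. Mga, a repressor of germ line genes that pairs with MAX on the E-box CACGTG, was lower, at 23.2 ± 0.970 against 45.5 ± 7.04 TPM. Zglp1 did not pass in that comparison.

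Of 16 genes of male fetal germ cells and spermatogonia, the cells in which Nanos2 is known, 8 were tested and 8 did not pass the filter. From day 7 to day 21 in 4F, 2 of the 8 were higher and 1 lower (median 1.13), beside 25.3% and 15.3% of all tested genes. Dnmt3l, a cofactor of de novo DNA methylation, rose from 0.352 ± 0.499 to 12.4 ± 1.32 TPM, Sall4 rose from 28.5 ± 2.18 to 110 ± 15.02 TPM, and Id4 fell from 28.9 ± 0.143 to 6.75 ± 1.20 TPM. Sall4 is also on the list of PGC specification genes. Between 8F and 4F 0 of 8 passed FDR 0.05 in limma, with 1 at an unadjusted p under 0.05 and 0 passed with voom.

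Relatives of the 9 genes by sequence family were measured beside them, and 22 of 31 were tested. From day 7 to day 21 in 4F, 9 were higher and 5 lower (median 0.20, and counts of 6 and 5, 7 and 6, and 5 and 6 under the other scalings). The shares of all tested genes were 25.3% and 15.3%. Tfap2e, an AP-2 paralog of Tfap2c, was at 0 and 4.87 TPM at day 7, at 217, 211 and 216 TPM in 4F at day 21 and at 313 and 314 TPM in 8F. At day 21 it was thus above Tfap2c, whose highest level was 14.6 TPM, in every library, and below it at day 7. Of the other AP-2 genes, named here after their values were seen, Tfap2a reached 6.03 TPM at most, and Tfap2b and Tfap2d reached 0.402 and 0.272 TPM at most. Nanos1, also named after its values were seen, was at 13.2 and 9.65 TPM at day 7, 15.2, 26.6 and 26.6 TPM in 4F at day 21 and 20.3 and 21.0 TPM in 8F, above Nanos2 and Nanos3 in all 7 libraries. Prdm6 and Gata4 rose from 1.04 ± 0.608 to 24.4 ± 3.67 TPM and from 2.32 ± 1.06 to 40.5 ± 7.28 TPM, and D1Pas1, a DDX3-type helicase of the testis, fell from 29.7 ± 1.56 to 2.37 ± 2.13 TPM. In 8F at day 21 Prdm6 and Gata4 were higher again than in 4F, at 57.8 ± 3.62 and 91.6 ± 5.38 TPM, and Prdm16 was lower, at 3.08 ± 0.582 against 12.0 ± 0.667 TPM.

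**Figure D5:**
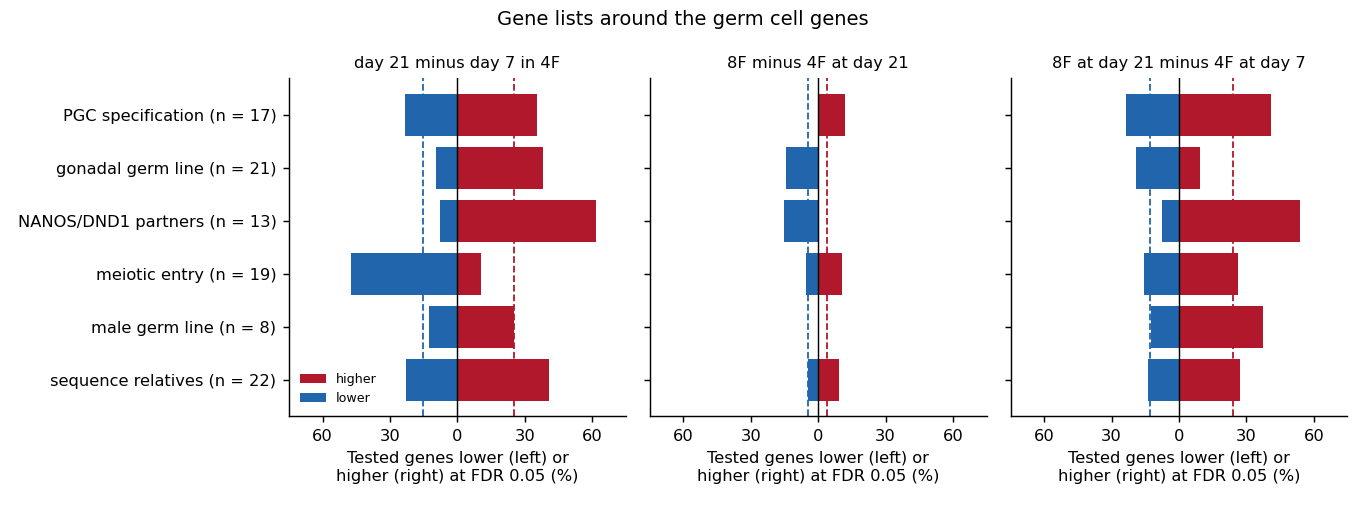
Share of the tested genes of each list that passed FDR 0.05 as higher (red, right) or lower (blue, left) in the 3 comparisons (horizontal axes, percent); dashed lines are the shares over all 21780 tested genes. For meiotic entry 9 of 19 genes are lower at day 21 than at day 7, and for gonadal germ line genes 3 of 21 are lower in 8F than in 4F.

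The genes nearest to the members in pattern were found among 10580 genes whose mean level reached 10 TPM, by the root mean square difference of centred log2(TPM + 1) over the 7 libraries. For Ddx4 they were Rsrc1 (0.048), Gm9843 (0.089) and Vps13c (0.096), and for Tfap2c Fn3krp (0.081), Tmem123 (0.081) and Gpi1 (0.089). For Dazl they were Gm20570 (0.25), Gm12988 (0.35) and Arid5b (0.52), which were less close. Gm20570 was at means of 139, 158 and 20.3 TPM in the 3 groups, beside 49.1, 72.7 and 8.34 TPM for Dazl. For Zglp1 they were Rnf10 (0.073), Chmp2b (0.079) and Ncstn (0.090).

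As a check of the labelled cells, all 10 oocyte markers were higher at day 21, with summed levels of 5836 to 7634 TPM at day 7, 29161 to 31745 TPM in 4F and 24802 to 25487 TPM in 8F at day 21. Markers of pluripotent cells summed to 62.6 to 83.0, 235 to 349 and 133 to 176 TPM, led by Pou5f1. Of 7 tested, 3 were higher and 1, Zfp42, lower at day 21 than at day 7 in 4F, beside 25.3% and 15.3% of all tested genes. Their median log2 fold change was 1.22, against 0.17 over all genes. Those higher were Pou5f1, Esrrb (mean 8.12 to 36.7 TPM) and Tbx3 (mean 1.25 to 8.70 TPM). Nanog was at 0 in all 5 day 21 libraries, and Sox2 reached 3.59 TPM at most. Markers of endoderm summed to 55.9 to 66.1, 39.9 to 52.9 and 97.3 to 106.2 TPM. In the endoderm list Dab2 led at day 7, at 52.8 and 59.9 TPM, and fell to 3.43 to 4.55 TPM in 4F at day 21 (log2 fold change -3.49, limma adjusted p = 0.000226), whereas Gata4 rose and led in all 5 day 21 libraries. Neural and mesodermal markers summed to 121 to 151, 35.6 to 64.1 and 49.4 to 51.9 TPM, led by Nes, with Neurog2 and Tbx6 at 0 in all libraries. Ovarian somatic markers summed to 15.3 to 22.1, 4.68 to 6.93 and 6.11 to 7.45 TPM, with Inha at 0 in all. No library repeated another of its group within counting noise (chi-square per degree of freedom of 9.66 to 35.3), which does not tell whether they came from separate cultures. The part of these differences in the levels of the 9 genes was not tested.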

How the data were processed

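RNA-seq of mini-oocytes was measured in 7 libraries. According to the study's methods and the submitters' processing notes, the authors trimmed reads with Trim Galore, mapped them to mm10 with HISAT2, removed ribosomal RNA reads with bedtools, kept unique alignments and counted exon reads per gene with featureCounts on GENCODE vM25, splitting reads over overlapping genes, with no strand option stated. The deposited values are TPM computed by the authors from these reads, and the counts were not used here.

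TPM values were divided by the value of 1 read on each gene's exon length (54312 genes with a length in GENCODE vM21, an earlier release on the same build than the authors used) to recover reads. Read numbers, floors and shared exon bases rest on these lengths. Of values up to 20 reads, 77.7% to 83.8% came out whole within 0.02 and 99.0% to 99.7% as sixths, as split reads give. The fit was limma 3.58.1 in R 4.3.3 (lmFit and eBayes with trend) on log2(TPM + 1), a scale that understates changes of low genes. It took 7 libraries in 3 groups and 3 contrasts, without the replicate number, with Benjamini-Hochberg adjustment over the 21780 genes that reached 1 TPM in 2 or more libraries, at FDR 0.05. On simulated data for 8F over 4F (54312 genes), 5 of 96 genes changed by 1 on the log2 scale and 34 of 93 changed by 2 were recovered, and 4 unchanged genes were called. In all, 39 of 189 tested changed genes were recovered, and 39 were called among the 101 with a mean of at least 10 TPM. Changes of lower genes, as Prdm1, Nanos2 and Dnd1 are, thus went largely unseen. The alternatives were other pseudocounts, filters and scalings, voom on recovered reads, the replicate number as a block, and leaving out each library. Nanos2 on the bases clear of Gm45058 was added after seeing the data. The 9 genes and the gene lists were chosen with earlier results of these data known. Named from each list were up to 4 genes past FDR 0.05 with a mean of at least 10 TPM in the higher group, by largest fold change.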

Additional observations from a re-analysis of the deposited data

How the results depend on the processing

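With 2 or 3 libraries a group and 1000 against 10 cells a pool, small differences of low genes could not be seen, and of the 315 values of the 7 tested genes recomputed under other settings, 265 kept direction and side of the threshold. For each comparison the cause of the changes below was not tested. From day 7 to day 21 in 4F, 8847 genes passed, and 7040 to 8320 without 1 library. There 2 of the 9 genes passed without any 1 library (lowest 2, highest 2), and 1 after quantile normalization. For 8F over 4F, 1822 genes passed, 306 to 2221 without 1 library, with 943, 924 and 1021 without each 4F day 21 library and 306 and 357 without each 8F library. There 0 to 2 of the 9 genes passed without 1 library, 0 without either 8F library and 1, Dazl, without the first 4F day 21 library. For 8F over day 7, 8103 genes passed, 4089 to 8281 without 1 library, with 4215 and 4089 without each 8F library. Of the 9 genes 0 to 2 passed there without 1 library, 1 (Dazl) and 0 without each 8F library, and 4 after quantile normalization, Tfap2c and Ddx4 (-0.65, limma adjusted p = 0.0213) joining. Without the first day 7 library Tfap2c passed (-0.91, limma adjusted p = 0.0485) and Dazl did not.

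The replicate numbers were not taken to pair the libraries, since deviations of same-numbered libraries correlated at -0.037 to 0.011. Number 3 occurs only in 4F at day 21, so a block takes up that library. Estimates of 4F at day 21 against the other groups then equal those without it. With the replicate block, 164 genes passed for 8F over 4F and 0 of the 9 did, with Ddx4 at -0.79 (limma adjusted p = 0.0888) and Dazl at -3.29 (limma adjusted p = 0.0604), and the block changed no other call of the 9 genes. With the block Dnd1 turned to 0.026 from day 7 to day 21 and to -0.17 for 8F over 4F, where Prdm1 turned to 0.017 and Nanos2 to 0.055.

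The other values that changed sign were all of differences that did not pass. From day 7 to day 21, Dazl was -0.053 after quantile normalization, Dnd1 0.73 without 4F day 7 replicate 1 and 0.026 without 4F day 21 replicate 2 or 3 (range without 1 library -1.40 to 0.73), and Zglp1 0.054 without 4F day 7 replicate 2 and 0.087 without 4F day 21 replicate 1 (range -0.19 to 0.087). For 8F over 4F, Dnd1 was -0.020 with a pseudocount of 5, -0.23 after quantile normalization and -0.17 without 4F day 21 replicate 2 or 3. Prdm1 was 0.025 with voom and 0.017 without 4F day 21 replicate 3 (range -0.32 to 0.017), and Nanos2 was 0.0057 and 0.055 in these settings (range -0.24 to 0.055). For 8F over day 7, Dnd1 was 0.73 with a pseudocount of 0.1, 0.98 with voom, 0.92 without 4F day 7 replicate 1 and 0.0067 without 8F replicate 2 (range -1.21 to 0.92). Zglp1 was -0.21, -0.082 and -0.31 under median-of-ratios, quantile and voom scaling and -0.018 without 4F day 7 replicate 1 (range -0.018 to 0.21), and Ddx4 was 0.071 without 4F day 7 replicate 2 (range -0.24 to 0.071).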
